A study of Homo sapiens with 4 samples.

Results

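The genes described here are 50 genes of DNA replication origins and forks, listed by function: origin licensing, the replicative helicase, the polymerases with their clamp, and the supply of nucleotides. A gene entered when at least 2 exon array probe sets were paired with its symbol and with no other, and all 50 did, out of 16634 such genes in all. They were read by 963 probe sets, from 3 in GINS4 to 58 in POLE, with a median of 17.5. The log2 values of its probe sets were averaged in each array to give a gene value.

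RNA came from A2780/SRSF3si2 cells. They derive from A2780, an ovarian cancer cell line, and carry an siRNA against the splicing factor SRSF3 that doxycycline (Doxy) induces. The study asked how SRSF3 knockdown alters gene expression and splicing in these cells. In the Doxy group cells were treated with 0.1 μg/ml Doxy for 3 days, in the No Doxy group the same cells were kept without it, and each group had 2 Affymetrix human exon arrays. The cells of both groups carry the same siRNA cassette, so the contrast holds Doxy itself together with the knockdown, which cannot be told apart here. The sources used here do not give whether the subline is a clone. Nothing in the labels says that the arrays of a group came from separate cultures, so p-values cover the spread among the arrays alone, which may be technical, and 2 arrays a group limit the precision.

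A cell copies its genome by loading a ring-shaped helicase at origins in G1 phase and firing it in S phase. The origin recognition complex (ORC) marks the origin, and CDC6 and CDT1 load the ring of MCM2 to MCM7 there, while geminin (GMNN) blocks CDT1 from loading it again. CDC45 and the GINS complex then join the ring to make the active CMG helicase. DNA polymerase alpha with primase starts each strand, polymerases epsilon and delta extend it on the sliding clamp PCNA, and RPA coats the bare single strand. Many of these genes are known targets of the E2F transcription factors, and their mRNAs are highest around the entry into S phase. The RNA was taken from whole cultures, in which fewer cells in S phase and less of these mRNAs per cell cannot be told apart.

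SRSF3 itself was measured at 8.51 and 8.33 in the No Doxy arrays and at 7.84 and 7.97 in the Doxy arrays, on the log2 scale. Each Doxy value was below each No Doxy value, and the difference of -0.51 (SE 0.18) had an adjusted p of 0.129 in limma, which did not pass the threshold of 0.05. With every array centred on its own median, it was -0.67 (adjusted p = 0.0376), and with the median of probe sets -0.21 (adjusted p = 0.71). The array medians were 5.20 and 5.04 without Doxy and 5.18 and 5.38 with Doxy, and centring moved the median difference of all genes from 0.04 to -0.13. For that reason counts below are also given with arrays centred and after quantile normalization. Arrays of a group correlated across genes with r = 0.987 without Doxy and 0.988 with Doxy, and arrays of different groups with r from 0.969 to 0.972. Of the markers of the labelled cell type, the 6 epithelial ones had gene values at percentiles from 22.4 (CDH1) to 65.3 (KRT8 and KRT18) of all genes, and the 3 ovarian carcinoma markers measured lay between 31.9 and 41.6. Leukocyte and endothelial markers lay at percentiles from 3.56 to 34.3, and the 6 fibroblast markers from 39.8 to 98.4, with COL3A1, DCN and LUM the highest. Of the 6 epithelial markers 2 were called higher with Doxy and none lower as deposited, 2 higher and 1 lower with arrays centred, and 1 higher and none lower after quantile normalization. Of the 6 fibroblast markers these counts were 1 higher and none lower, none higher and 1 lower, and 1 higher and 1 lower. No leukocyte, endothelial or ovarian marker was called on any of these scales. Signal also depends on the probes, and the part of these markers in the results was not tested.

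With Doxy, 6 of the 50 replication genes fell and none rose at an adjusted p under 0.05 in limma. The 6 were the ORC subunits ORC3 and ORC6, the polymerase delta subunit POLD2, the CDK phosphatase CDC25A, the helicase subunit CDC45 and the catalytic subunit of polymerase alpha, POLA1. Among all 16634 genes tested, 1.70% were called lower, 5.67% higher and 7.36% either way, so that 12.0% of the replication genes were called lower against 1.70% of all genes, and none higher against 5.67%. At an unadjusted p under 0.05, 15 of the 50 were lower (6.66% of all genes) and 2 higher (16.5% of all genes), the latter being SLBP and RPA1. The median difference of the 50 was -0.31, with a range from -1.56 to 0.65, beside 0.04 over all genes. The difference was below 0 in 42 of the 50 (45.6% of all genes). It was below 0 in 44 with arrays centred (10613 of the 16634 genes) and in 44 after quantile normalization (9303 of the 16634). With arrays centred, 17 of the 50 were called lower (5.74% of all genes) and none higher (5.52%), and after quantile normalization 11 were lower (3.64%) and none higher (5.40%). Both counts included the same 6 genes. The others were MCM3, MCM10, ORC2, POLE and TK1 on either scale, and MCM5, GINS1, GINS3, TYMS, RFC5 and CCNE1 with arrays centred alone. Below, passing the test refers to the values as deposited.

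ORC3, a subunit of the core of the origin recognition complex, had gene values of 6.77 and 6.70 without Doxy and of 5.01 and 5.35 with Doxy. Its Doxy values lay well below those without Doxy, and the difference of -1.56 (SE 0.19, adjusted p = 0.00909, limma) is a level 2.94-fold lower. ORC6, the subunit least tightly bound to the complex in human cells, had values of 6.49 and 6.68 without Doxy and of 4.99 and 5.47 with Doxy. Its groups did not overlap either, and it was 2.55-fold lower (difference -1.35, SE 0.21, adjusted p = 0.0163). POLD2, which joins the catalytic subunit of polymerase delta to the accessory ones, had values of 8.06 and 7.98 without Doxy and of 6.21 and 6.71 with Doxy. All its Doxy values were again below those without Doxy, by 2.95-fold on average (difference -1.56, SE 0.21, adjusted p = 0.0124).

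CDC25A removes the inhibitory phosphate from CDK2 and so drives the entry into S phase. Its gene values were 4.93 and 5.02 without Doxy and 3.50 and 4.01 with Doxy, and its difference was -1.22 (SE 0.21, adjusted p = 0.0195, limma), or 2.33-fold lower, with no overlap of the groups. CDC45, the helicase factor that the MCM ring gains when an origin fires, had values of 5.26 and 5.32 without Doxy and of 3.98 and 4.53 with Doxy. Every Doxy value lay below every No Doxy value, with a difference of -1.04 (SE 0.22, adjusted p = 0.0321), or 2.05-fold lower. POLA1, which makes the first stretch of DNA on each primer, had values of 5.82 and 5.99 without Doxy and of 4.46 and 5.23 with Doxy. Its groups did not overlap, and the difference was -1.06 (SE 0.26, adjusted p = 0.0486), or 2.09-fold lower. POLA1 was the gene nearest to the threshold, and its adjusted p ranged from 0.000671 to 0.434 over the alternatives. When either No Doxy array was left out, the test called no gene at all, so it could not set the replication genes apart from the rest. The difference of POLA1 was -1.15 without No Doxy replicate 1 and -0.98 without No Doxy replicate 2.

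**Figure D1:**
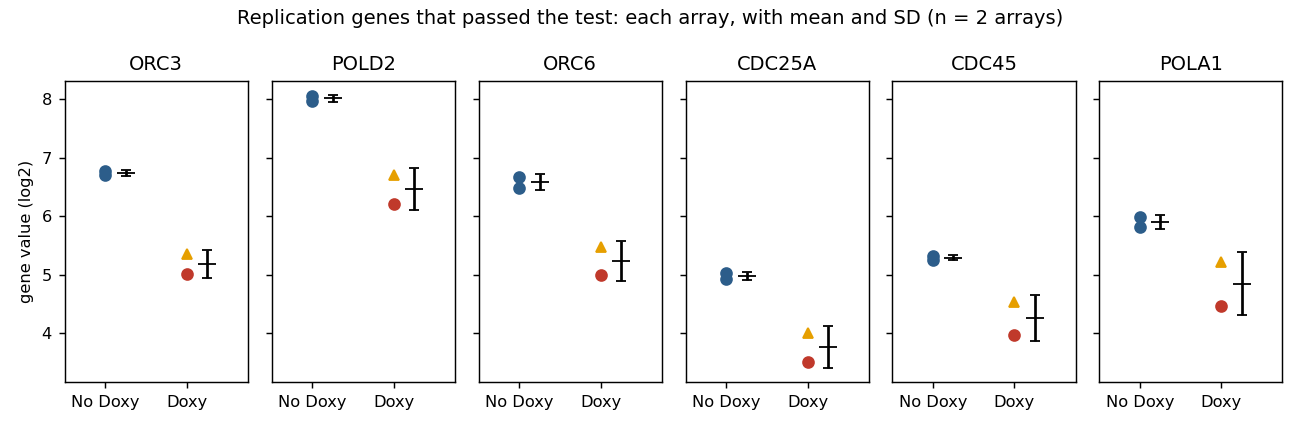
Gene values (log2, y axis) of the 6 replication genes that passed the test, in the 2 No Doxy and the 2 Doxy arrays, with each array as a point (Doxy replicate 2 as a triangle) and the mean and SD (n = 2) beside the points. In all 6 genes the Doxy points lie below the No Doxy points, and Doxy replicate 1 lies below Doxy replicate 2.

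The promoters of the 4 genes with the smallest p are shown because the replication genes are known for E2F sites and CCAAT boxes near their starts. The windows run from 250 bases before to 50 bases after the gene start, 5′ to 3′ on the strand of the gene, from RefSeq on GRCh38.p14. Capitals mark matches to CCAAT (read as ATTGG on the other strand), to TTTGGCGC and to TTTCCCGC (read as GCGGGAAA on the other strand), the last 2 being letters of E2F sites.
ORC3, chr6:87589885-87590184, plus strand: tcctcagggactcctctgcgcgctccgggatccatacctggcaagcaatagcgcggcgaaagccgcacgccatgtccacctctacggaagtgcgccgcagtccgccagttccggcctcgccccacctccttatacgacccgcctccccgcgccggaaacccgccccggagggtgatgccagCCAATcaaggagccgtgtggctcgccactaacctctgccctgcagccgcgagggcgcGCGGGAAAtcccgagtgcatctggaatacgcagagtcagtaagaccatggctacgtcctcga
POLD2, chr7:44123499-44123798, minus strand: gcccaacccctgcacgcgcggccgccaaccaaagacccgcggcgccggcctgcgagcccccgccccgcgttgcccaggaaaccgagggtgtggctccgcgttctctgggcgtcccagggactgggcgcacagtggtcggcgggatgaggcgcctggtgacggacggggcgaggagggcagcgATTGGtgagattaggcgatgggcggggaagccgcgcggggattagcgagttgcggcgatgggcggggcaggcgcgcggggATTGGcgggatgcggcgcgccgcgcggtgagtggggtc
ORC6, chr16:46689409-46689708, plus strand: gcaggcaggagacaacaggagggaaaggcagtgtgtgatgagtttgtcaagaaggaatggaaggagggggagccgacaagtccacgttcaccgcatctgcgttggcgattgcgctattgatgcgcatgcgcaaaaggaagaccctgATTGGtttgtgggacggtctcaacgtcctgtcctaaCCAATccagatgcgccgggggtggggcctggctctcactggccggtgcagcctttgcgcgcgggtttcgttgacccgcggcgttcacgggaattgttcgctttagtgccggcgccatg
CDC25A, chr3:48188368-48188667, minus strand: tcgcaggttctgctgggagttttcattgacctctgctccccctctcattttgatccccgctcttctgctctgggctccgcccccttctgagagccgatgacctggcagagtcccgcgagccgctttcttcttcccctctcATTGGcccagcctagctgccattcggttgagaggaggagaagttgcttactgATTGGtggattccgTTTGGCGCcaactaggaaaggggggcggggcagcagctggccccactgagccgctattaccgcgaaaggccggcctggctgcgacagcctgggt
The ORC3 window held CCAAT 69 bases before the start and TTTCCCGC, on the other strand, 12 bases before it. POLD2 held ATTGG 68 bases before and 13 bases after the start, and ORC6 held ATTGG 104 bases and CCAAT 68 bases before it. CDC25A held ATTGG 110 and 58 bases before the start and TTTGGCGC 44 bases before it.

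RefSeq windows matched 42 of the 50 genes by symbol and 27305 genes in all, with 1 window of 300 bases a gene, and motifs were searched on both strands. The genes without a window here were MCM4, MCM5, GINS4, POLD3, RPA2, RPA3, CCNE2 and CDK2. TTTGGCGC was in 8 of the 42 windows (19.0%) and in 0.659% of all windows, and TTTCCCGC in 10 (23.8%) and in 1.66% of all. At least 1 of these E2F motifs was in 18 windows (42.9%; 2.31% of all), of which 3 belonged to the 6 genes called lower, namely ORC3, POLA1 and CDC25A. CCAAT was in 24 of the 42 (57.1%; 35.7% of all) and in the windows of all 6 called genes. TTTGAA, letters of the element that holds cell cycle genes silent in G1 phase, was in 1 of the 42 windows, that of RRM1 (2.38%; 15.4% of all), and in no window of a called gene. None of the motifs contains another. A match is a description of the letters, and the replication genes that were not called held these motifs too, among them MCM3, MCM6, MCM7, PCNA and TYMS.

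The Doxy arrays differed from each other over these genes far more than the No Doxy arrays did. In Doxy replicate 1, 44 of the 50 genes lay under the No Doxy pair, that is below each of its arrays (35.1% of all genes) and 4 above both (38.2% of all genes), with a median of -0.80 from the No Doxy mean. In Doxy replicate 2, 19 lay under the pair (31.2% of all genes) and 23 above both (45.1% of all genes), with a median of 0.04. The median of Doxy replicate 2 went to -0.23 with arrays centred and to -0.16 after quantile normalization. Over all genes the medians were 0.02 in replicate 1 and 0.07 in replicate 2, and the SD of a gene between the Doxy arrays had a median of 0.51 for the replication genes and of 0.14 for all genes. Between the No Doxy arrays those medians were 0.10 and 0.13.

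All 50 genes were higher in Doxy replicate 2 than in Doxy replicate 1 (61.7% of all genes). With arrays centred this held for 46 (35.6% of all genes) and after quantile normalization for 48 (45.0%). The Doxy arrays were at least 1 apart, that is 2-fold, in 15 of the 50 (1.32% of all genes), and in 11 under either other scale (0.926% and 0.890% of all genes). In 19 of the 50 genes both Doxy arrays lay under the No Doxy pair (21.8% of all genes), and in 4, namely RPA1, SLBP, ORC4 and GMNN, both lay above (30.5%). In 17 more, Doxy replicate 1 lay below both and Doxy replicate 2 above both (6.82% of all genes).

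On the other scales the split of Doxy replicate 1 was nearly unchanged and that of Doxy replicate 2 was not. With arrays centred, 44 of the 50 lay under the No Doxy pair in replicate 1 (41.4% of all genes) and 2 above (32.3%), and in replicate 2 there were 29 below (56.5%) and 13 above (27.0%). After quantile normalization the counts were 45 below (38.4%) and 2 above (35.8%) in replicate 1, and 28 below (45.3%) and 19 above (33.0%) in replicate 2. Both Doxy arrays lay under the No Doxy pair in 29 genes with arrays centred (35.1% of all genes) and in 28 after quantile normalization (29.6%).

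**Figure D2:**
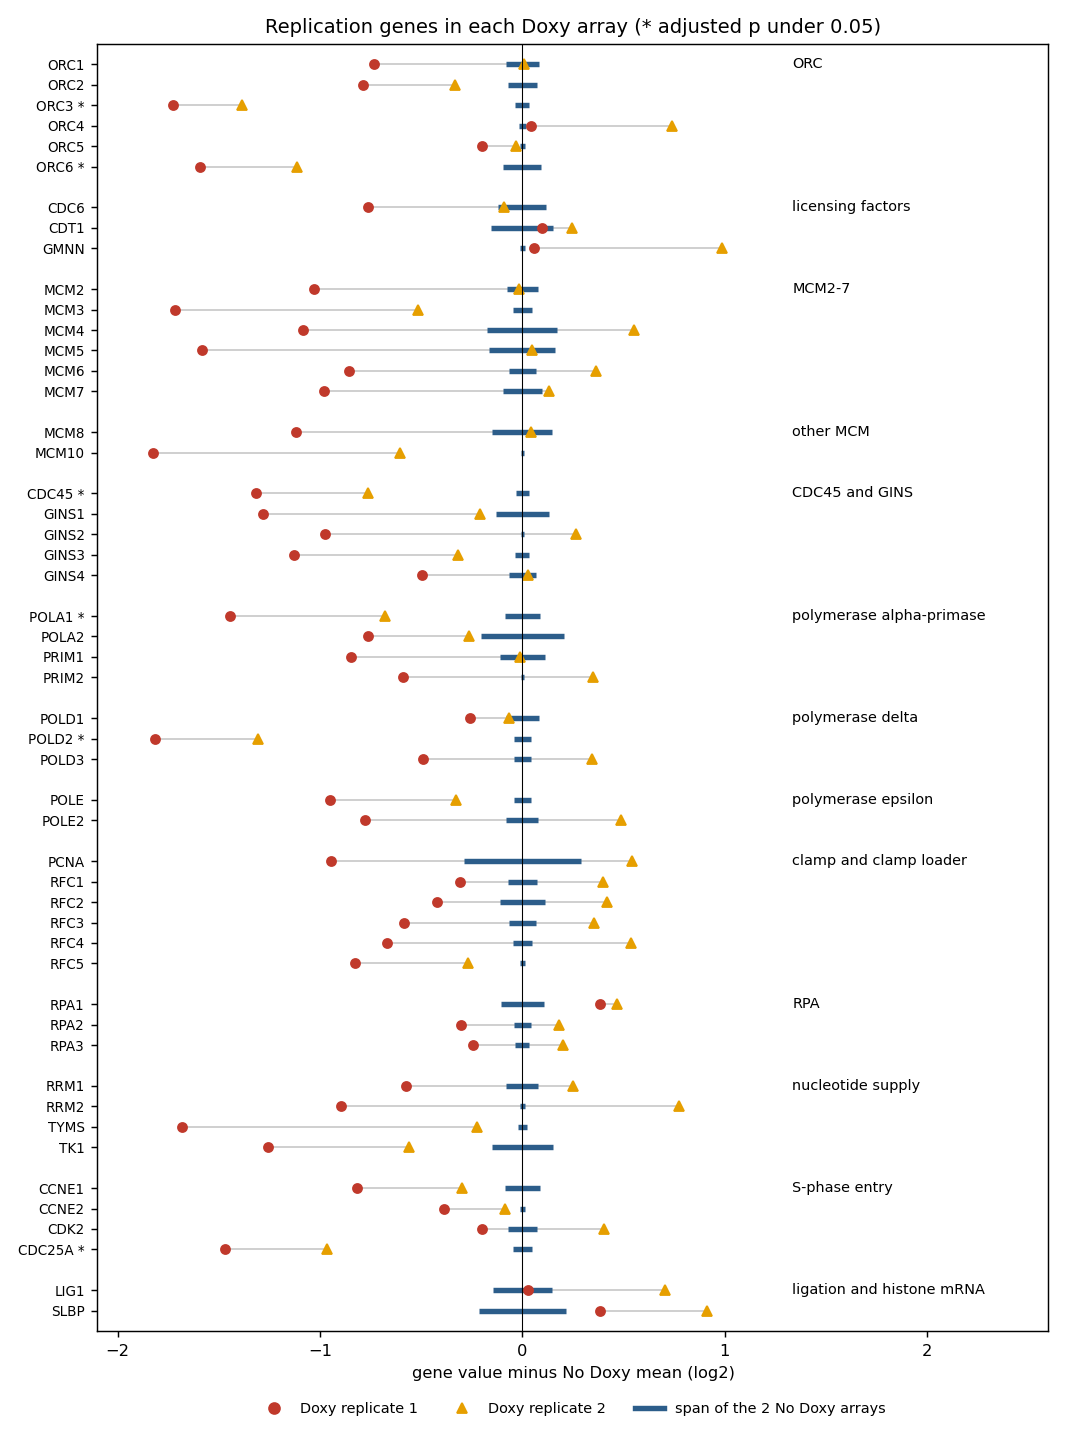
Gene value of each of the 50 replication genes in Doxy replicate 1 (circles) and Doxy replicate 2 (triangles) minus the No Doxy mean (log2, x axis), by complex, with the span of the 2 No Doxy arrays as a bar around 0 and a star at the 6 genes called lower. Doxy replicate 1 lies under the No Doxy pair in 44 genes and Doxy replicate 2 in 19.

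**Figure D3:**
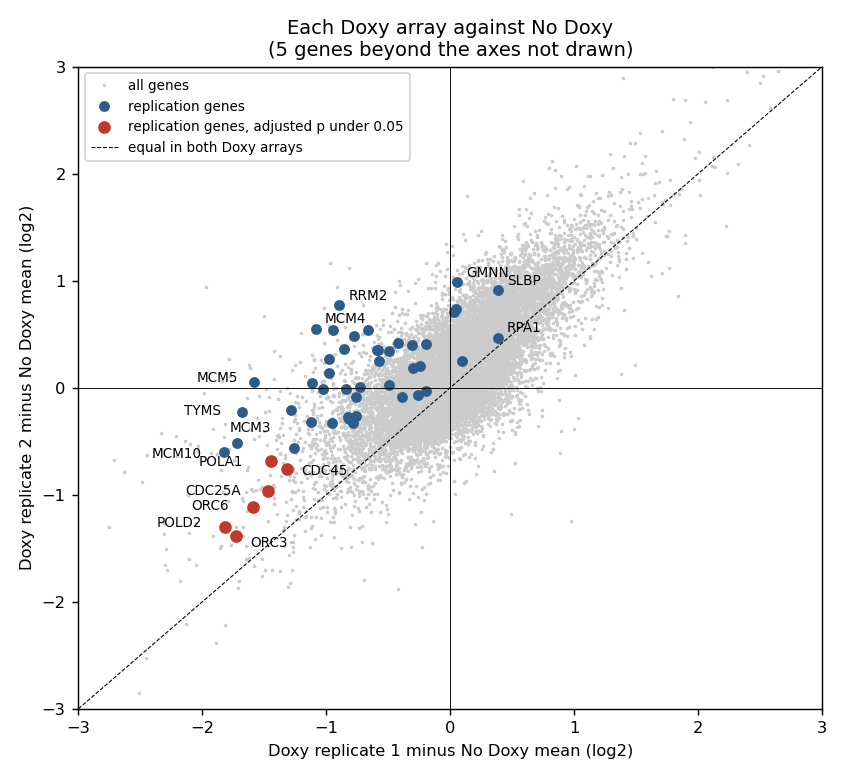
Difference from the No Doxy mean (log2) in Doxy replicate 1 (x axis) and Doxy replicate 2 (y axis) for all 16634 genes (grey), the replication genes (blue) and the 6 called lower (red), with 5 genes beyond the axes not drawn. All 50 replication genes lie above the dashed line of equal values, and the axes share the same No Doxy mean, so the spread along that line is partly common to them.

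The origin recognition complex binds origins and serves as the platform for helicase loading. Of its 6 subunits, 5 were lower on average with Doxy (45.6% of all genes) and 2 were called lower (1.70% of all genes). The median difference was -0.46, and by array it was -0.76 in Doxy replicate 1 and -0.18 in Doxy replicate 2. ORC2, a core subunit, had values of 8.14 and 8.29 without Doxy and of 7.43 and 7.88 with Doxy, which did not overlap but did not pass the test either (difference -0.56, adjusted p = 0.151, limma). ORC1, the subunit that recruits the others to chromatin in human cells, had a difference of -0.36 (adjusted p = 0.464), and ORC5 of -0.12 (adjusted p = 0.767). ORC4 ran the other way at 6.43 and 6.40 without Doxy and 6.45 and 7.15 with Doxy, a difference of 0.39 (adjusted p = 0.405). That difference rested on replicate 2, since replicate 1 lay 0.042 from the No Doxy mean, and it was 0.23 with arrays centred. The subunits of this complex thus spanned differences from -1.56 in ORC3 to 0.39 in ORC4, with called and uncalled genes side by side.

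None of the 3 licensing factors passed the test. CDC6, the ATPase that loads the helicase with ORC, had values of 7.19 and 7.42 without Doxy and of 6.54 and 7.21 with Doxy, a difference of -0.43 (adjusted p = 0.363, limma) with replicate 2 inside the No Doxy span. CDT1, its partner in loading, had a difference of 0.17 (adjusted p = 0.671), which was 0.01 with arrays centred. GMNN, the inhibitor of CDT1, was at 4.82 and 4.79 without Doxy and at 4.86 and 5.79 with Doxy. Its difference of 0.52 (adjusted p = 0.34) rested on replicate 2, since replicate 1 lay 0.055 from the No Doxy mean.

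All 6 genes of the MCM2 to MCM7 ring, the motor of the replicative helicase, lay under the No Doxy pair in Doxy replicate 1 (35.1% of all genes). None of the 6 passed the test as deposited. MCM3 passed with arrays centred (adjusted p = 0.00104, limma) and after quantile normalization (adjusted p = 0.035), and MCM5 with arrays centred (adjusted p = 0.0339) but not after quantile normalization (adjusted p = 0.193). In Doxy replicate 2 MCM3 lay below both (31.2% of all genes), and MCM4, MCM6 and MCM7 above both (45.1% of all genes). With arrays centred 4 of the 6 lay below (56.5% of all genes) and 1 above (27.0%), so these counts were near the shares of all genes. The medians were -1.06 in replicate 1 and 0.09 in replicate 2, the latter turning to -0.17 with arrays centred and to -0.13 after quantile normalization. In all 6 the Doxy arrays were at least 1 apart as deposited, and the median gap was 1.21, beside 0.08 over all genes, or 1.01 beside -0.12 with arrays centred.

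MCM3 had the lowest mean difference of the ring and was at 7.67 and 7.57 without Doxy and at 5.90 and 7.11 with Doxy, with no overlap (difference -1.12, SE 0.35, adjusted p = 0.0967, limma). MCM5 was at 7.33 and 7.01 without Doxy and at 5.58 and 7.22 with Doxy. Doxy replicate 2 of MCM5 fell between the No Doxy arrays, and the gap between the Doxy arrays was 1.63, beside a mean difference of -0.77. MCM4 was at 7.12 and 6.77 without Doxy and at 5.86 and 7.49 with Doxy, so that its Doxy arrays stood on opposite sides of the No Doxy arrays.

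As deposited, MCM6 and MCM7 showed the same split, while MCM2 had Doxy replicate 2 between the No Doxy arrays, as MCM5 did. With arrays centred, Doxy replicate 2 was 0.10 from the No Doxy mean in MCM6 and -0.13 in MCM7. After quantile normalization these were 0.18 and -0.08, so the split of MCM7 was not seen on the other scales. With arrays centred, MCM4 was the 1 ring gene above both No Doxy arrays in replicate 2, so the split of MCM6 was not seen on that scale either. MCM2 was at 6.72 and 6.57 without Doxy and at 5.62 and 6.63 with Doxy. MCM6 was at 8.0 and 8.14 without Doxy and at 7.21 and 8.43 with Doxy. MCM7 was at 7.29 and 7.10 without Doxy and at 6.21 and 7.33 with Doxy. Their mean differences ran from -0.52 in MCM2 to -0.25 in MCM6, with adjusted p from 0.374 to 0.755.

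MCM10, a factor needed to switch the loaded ring into the active helicase, was at 5.30 and 5.29 without Doxy and at 3.47 and 4.69 with Doxy. The Doxy values lay under the No Doxy pair and -1.83 in replicate 1 was the lowest value from the No Doxy mean among the 50 genes as deposited. The gap between the Doxy arrays was 1.22, and the difference of -1.21 (SE 0.35, adjusted p = 0.0796, limma) did not pass the test, though it did with arrays centred (adjusted p = 0.000554) and after quantile normalization (adjusted p = 0.0319). MCM8, an MCM relative known for a role in homologous recombination, was at 6.20 and 6.49 without Doxy and at 5.23 and 6.39 with Doxy. Its replicate 2 fell within the No Doxy span (difference -0.54, adjusted p = 0.419).

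The partners of the ring, CDC45 and the 4 GINS subunits, were all under the No Doxy pair in Doxy replicate 1 (35.1% of all genes). CDC45 was the gene of the 5 that passed the test. The medians were -1.13 in replicate 1 and -0.21 in replicate 2. GINS1 was at 7.21 and 6.95 without Doxy and at 5.80 and 6.87 with Doxy, without overlap (difference -0.75, SE 0.32, adjusted p = 0.217, limma). GINS2 was at 4.34 and 4.35 without Doxy and at 3.37 and 4.61 with Doxy, on both sides of the No Doxy arrays (difference -0.36, adjusted p = 0.63). Its replicate 2 lay 0.002 from the No Doxy mean with arrays centred and 0.10 after quantile normalization. GINS3 and GINS4 had differences of -0.72 (adjusted p = 0.148) and -0.23 (adjusted p = 0.601).

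Polymerase alpha and primase start DNA synthesis. All 4 of their genes lay under the No Doxy pair in Doxy replicate 1 (35.1% of all genes), with a median of -0.80 against -0.14 in replicate 2. POLA1 was the called gene. The regulatory subunit POLA2 had a difference of -0.51 (adjusted p = 0.24, limma), and the primase subunits PRIM1 and PRIM2 had -0.43 (adjusted p = 0.417) and -0.12 (adjusted p = 0.862). In PRIM2 Doxy replicate 2 lay above both No Doxy arrays, at 6.12 beside 5.78 and 5.77.

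Polymerase delta makes most of the lagging strand, and its 3 genes went apart. POLD2 was called at -1.56, whereas the catalytic subunit POLD1 had -0.16 (SE 0.18, adjusted p = 0.677, limma) and POLD3 -0.08 (SE 0.27, adjusted p = 0.914). Whether POLD2 differed from its partners was not tested. Of the leading strand polymerase epsilon, the catalytic subunit POLE was at 5.72 and 5.81 without Doxy and at 4.81 and 5.44 with Doxy, without overlap (difference -0.64, SE 0.23, adjusted p = 0.144). POLE2 was at 4.96 and 5.12 without Doxy and at 4.26 and 5.52 with Doxy, on both sides of the No Doxy arrays (difference -0.15, adjusted p = 0.865).

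The sliding clamp PCNA and the 5 subunits of its loader, replication factor C, had a median difference of -0.09, and none of the 6 passed the test. Doxy replicate 1 was under the No Doxy pair in all 6 (35.1% of all genes), with a median of -0.63. Doxy replicate 2 was above both in 5 of the 6 (45.1% of all genes), with a median of 0.41. With arrays centred it was above both in 3 of the 6 (27.0% of all genes), with a median of 0.15. PCNA was at 7.53 and 6.95 without Doxy and at 6.29 and 7.78 with Doxy (difference -0.20, SE 0.43, adjusted p = 0.842, limma). RFC4, a small subunit of the loader, was at 7.09 and 7.18 without Doxy and at 6.47 and 7.67 with Doxy. In PCNA and RFC4 the Doxy arrays enclosed the No Doxy arrays, and the mean differences were small beside a gap of 1.49 in PCNA and 1.20 in RFC4. RFC5 was the exception among the 6, with each Doxy value under the No Doxy pair (difference -0.55, adjusted p = 0.182).

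RPA protects the single strand behind the helicase. Its large, DNA-binding subunit RPA1 was at 8.13 and 7.92 without Doxy and at 8.41 and 8.49 with Doxy, so that its Doxy values were above the No Doxy pair and close to each other. The difference of 0.42 (SE 0.18) had an unadjusted p of 0.0451 and an adjusted p of 0.204 in limma, and it was 0.26 (adjusted p = 0.452) with arrays centred. RPA2 and RPA3 had differences of -0.06 (adjusted p = 0.909) and -0.02 (adjusted p = 0.966).

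Of the enzymes that supply nucleotides, the small subunit of ribonucleotide reductase, RRM2, showed the widest gap between the Doxy arrays among all 50 genes as deposited. It was at 6.84 and 6.82 without Doxy and at 5.94 and 7.60 with Doxy, a gap of 1.67 around a mean difference of -0.06 (SE 0.45, adjusted p = 0.959, limma). Thymidylate synthase, TYMS, which makes dTMP, was at 8.66 and 8.62 without Doxy and at 6.96 and 8.42 with Doxy. Its groups did not overlap, and the difference was -0.95 (SE 0.40, adjusted p = 0.205). Thymidine kinase TK1, which salvages thymidine, was at 7.17 and 6.87 without Doxy and at 5.76 and 6.46 with Doxy, also without overlap (difference -0.91, SE 0.26, adjusted p = 0.0727). The large subunit RRM1 had a difference of -0.16 (adjusted p = 0.794). Doxy replicate 1 was under the No Doxy pair in all 4 (35.1% of all genes), with a median of -1.08. Replicate 2 had a median of 0.01, which was -0.25 with arrays centred.

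Of the 4 genes that drive the entry into S phase, CDC25A was called lower, and its target CDK2 had a difference of 0.10 (adjusted p = 0.851, limma), which was -0.06 with arrays centred. The cyclins that activate CDK2 at this step, CCNE1 and CCNE2, had differences of -0.56 (adjusted p = 0.173) and -0.24 (adjusted p = 0.521). CCNE2 was near the bottom of the signal range, with 12 of its 16 probe sets among the dimmest 25% of all. Among the genes above 0 on average were a ligase and a histone mRNA factor. DNA ligase LIG1, which seals the lagging strand fragments, had a difference of 0.37 (adjusted p = 0.453). SLBP, which binds the stem-loop of histone mRNAs made in S phase, was at 7.42 and 6.99 without Doxy and at 7.59 and 8.11 with Doxy. Its Doxy values were above the No Doxy pair, with a difference of 0.65 (SE 0.24, unadjusted p = 0.0277, adjusted p = 0.153) that was 0.48 with arrays centred.

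Probe set by probe set, 338 of the 963 (35.1%) had both Doxy values under the No Doxy pair (19.0% of all probe sets), and 70 (7.27%) had both above it (26.4% of all). Since the same arrays read all probe sets of a gene, these are not independent. The genes called lower, which were called on the mean of these same probe sets, were low along most of them. This held for 20 of 23 probe sets in ORC3, 15 of 16 in POLD2, 10 of 11 in ORC6, 14 of 18 in CDC25A, 34 of 41 in POLA1 and 12 of 20 in CDC45. By contrast none of the 21 probe sets of MCM6, the 14 of RRM2, the 10 of PCNA or the 13 of RFC4 was under the pair in both Doxy arrays. In RPA1 15 of 20 and in SLBP 6 of 10 were above it in both. All these genes were picked by their gene values, so the counts describe how those values arose and are not separate evidence.

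SRSF3 is a splicing factor, so a test was also made for unequal change within a gene, as arises when an exon is gained or lost. By limma's diffSplice F test no replication gene passed an adjusted p under 0.05 (2.46% of all genes), and at an unadjusted p under 0.05 there were 3, namely ORC5, CDC45 and SLBP (13.4% of all genes). By the Simes test, which looks for single deviating probe sets, 1 passed, ORC5 (5.36% of all genes). Probe set 3065966 of ORC5 was at 5.99 and 5.87 without Doxy and at 4.10 and 4.69 with Doxy. Its difference was -1.54, beside a median of -0.16 over the other ORC5 probe sets (F test adjusted p = 0.128, Simes adjusted p = 0.0249). In CDC45, the most deviating probe set, 3936923, had a difference of -2.71 beside a median of -0.55 over the others (F test adjusted p = 0.257, Simes adjusted p = 0.47). It did not stand alone, since probe sets 3936925 and 3936922 had differences of -2.44 and -2.24, and the highest CDC45 probe set had 0.03. The F test was also run with each array left out, and its calls changed without No Doxy replicate 1. Those calls are not compared here, since the share of all genes called was not counted for them. Which exon a probe set reads was not analysed here.

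**Figure D4:**
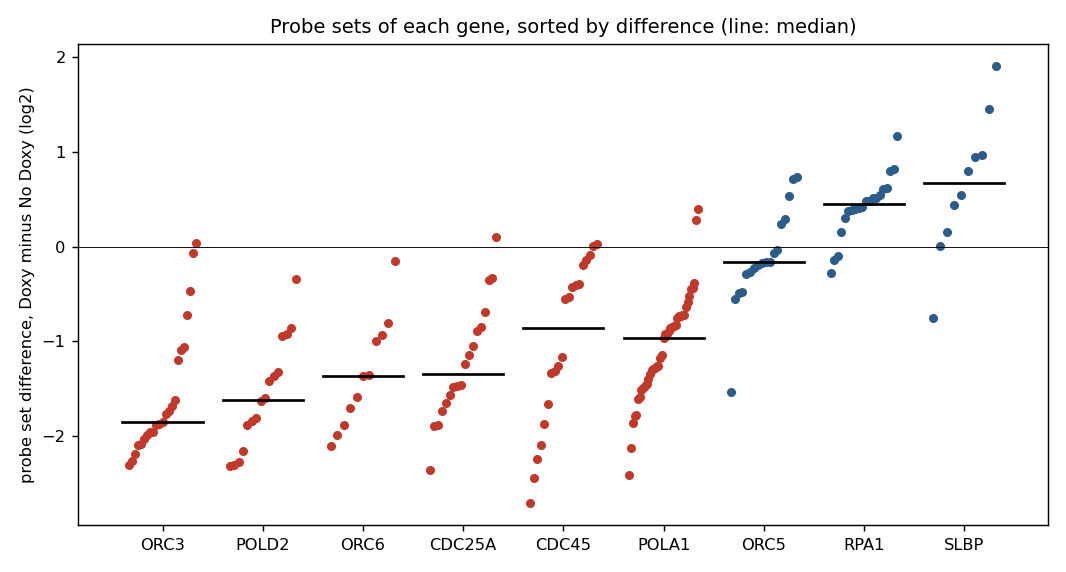
Difference between Doxy and No Doxy (log2, y axis) of each probe set of the 6 genes called lower (red) and of ORC5, RPA1 and SLBP (blue), sorted within each gene, with the median as a line. The probe sets of ORC3, POLD2 and ORC6 lie almost all below 0, those of RPA1 mostly above it, and ORC5 has a lone probe set at -1.54.

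Other genes of the same process were counted from lists. Of 23 further origin and fork genes, none passed the test, with a median difference of -0.23. In Doxy replicate 1, 18 of the 23 lay under the No Doxy pair (35.1% of all genes). Of 11 further genes of nucleotide synthesis and 7 chromatin assembly genes none passed, with medians of -0.05 and -0.31. With arrays centred 5 of the 23, 3 of the 11 and 1 of the 7 were called lower (5.74% of all genes), and after quantile normalization 1, 3 and 0 (3.64% of all genes). Of 23 clustered histone genes, whose mRNAs are made in S phase, 1 was lower as deposited (1.70% of all genes), the linker histone gene H1-3. It was at 6.30 and 6.62 without Doxy and at 5.34 and 5.77 with Doxy (difference -0.91, SE 0.22, adjusted p = 0.0448, limma), and the median of the 23 was -0.04. With arrays centred 5 of the 23 were called lower (median -0.21), and after quantile normalization 2 (median -0.15). Histone genes are near copies of each other, so their probe sets may share signal.

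Genes of G2 phase and mitosis, which cycling cells express after replication, were split between the Doxy arrays in the same direction. The mean level of 24 such genes was 6.99 and 7.39 without Doxy and 5.90 and 7.20 with Doxy. Of the 24, 22 lay under the No Doxy pair in Doxy replicate 1 (35.1% of all genes). None passed the test, and 12 were called lower with arrays centred (5.74% of all genes) and 3 (3.64%) after quantile normalization. The mean level of the 50 replication genes was 6.39 and 6.36 without Doxy and 5.58 and 6.38 with Doxy. Both lists were therefore low in Doxy replicate 1, and the part of cell cycle state in the differences above was not tested.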

How the data were processed

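Expression was measured with Affymetrix human exon arrays in A2780/SRSF3si2 cells with Doxy (2 arrays) and without Doxy (2 arrays). The deposited log2 values are RMA values that the authors computed for the core exon probe sets with Expression Console (Affymetrix). For that software the version and options, and for the probe sets the build, were not given in the sources used here. Partek 6.6 is named in the submitters' processing notes. Deposited values ran from 0.70 to 14.5 and were used as they stand. Raw intensities and the depth of signal over background were not analysed here.

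Of 287329 probe sets, the 261273 paired with 1 symbol were used, and 9155 with several symbols and 16901 with none were left out. The RefSeq table of GRCh38.p14 listed 14546 of the 16941 symbols as current and updated 2276, and 119 stayed as they were. Gene values were means over at least 2 probe sets. Doxy was compared with No Doxy across all genes by limma 3.58.1 in R 4.3.3 (lmFit and eBayes, 2 residual and 5.95 prior degrees of freedom) with Benjamini-Hochberg adjustment over 16634 genes, and genes were called at an adjusted p under 0.05. Unequal probe sets were tested by limma's diffSplice. Plots were made in Python 3.11.15 with matplotlib 3.10.9, and the code of the fits was run on simulated data with known differences. The simulated noise had the same size in all genes and was independent between arrays. It lacked the wide spread of the replication genes between the Doxy arrays, so that run does not bear on their calls.

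Replication genes were given with every array value when they were called, had an unequal probe set call, or had Doxy arrays at least 1 apart. The others with array values were chosen after their values were seen. The 50 genes, the lists and the tests were chosen with earlier results of these data known. Alternatives were the median of probe sets, Tukey's median polish, arrays centred, quantile normalization, a filter on the dimmest 25% of probe sets, a minimum of 1 or 5 probe sets, a replicate block, a trended and robust prior, the methods' t-test, an unadjusted p under 0.05 with over 2-fold change, diffSplice's Simes test and each array left out.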

Additional observations from a re-analysis of the deposited data

How the results depend on the processing

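The count of replication genes called lower was 6. It was 3 with the median of probe sets and 3 with Tukey's median polish, which kept ORC3, ORC6 and POLD2. The share of all genes called lower went from 1.70% to 0.457% and 1.31% in these settings. It was 17 with arrays centred and 11 with quantile normalization, both with the same 6 among them. The methods' t-test called 0 after Benjamini-Hochberg adjustment, but it also called 0 of all 16634 genes, so that count is not particular to these genes. At an unadjusted p under 0.05 it had 4 of the 50, beside 2328 of the 16634. With 1 array left out it ranged from 0 to 9, and it was 0 without either No Doxy array, 3 without Doxy replicate 1 (ORC3, ORC6 and POLD2) and 9 without Doxy replicate 2 (5 of the 6, with CDC45 lost). An array left alone in its group is assumed to vary like the others. No replication gene was called higher under any of the 15 alternatives. Among these, the methods' t-test and the fits without either No Doxy array could not show one, since they called no gene in either direction. No label ties arrays of equal number, and their deviations correlated across genes with r = 0.127 over 2 pairs, which leaves the pairing unknown. With a replicate block 14 replication genes were called lower, the 6, MCM3, MCM5 and MCM10 among them, and 658 genes lower and 1763 higher in all, beside 282 and 943 without it. All genes called were 954 lower and 918 higher with arrays centred and 606 lower and 899 higher with quantile normalization.

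The median of the replication genes ranged from -0.803 to 0.035 with 1 array left out. In Doxy replicate 1 alone it was -0.80, and -0.87 with arrays centred, -0.85 with quantile normalization, -0.89 with the median of probe sets and -0.84 without the dimmest probe sets. In Doxy replicate 2 alone it was 0.04, and -0.23, -0.16, 0.21 and -0.015 under the same alternatives. Genes with unequal probe sets numbered 0 by the F test (2.46% of all genes) and 1 by the Simes test (5.36% of all genes). The F test calls changed with 1 array left out, for which the share of all genes was not counted. SRSF3 passed the test at -0.67 with arrays centred and at -0.64 with quantile normalization, and ranged from -0.60 to -0.43 with 1 array left out. It was weakest at -0.21 with the median of probe sets (adjusted p = 0.71, limma). By the methods' t-test its adjusted p was 0.349. Mean differences below 0 numbered 42 of the 50 genes (45.6% of all genes). They numbered 23 of the 50 without Doxy replicate 1, where the median over all genes was 0.066. Among the genes given with every array value by rule, those whose sign changed with 1 array left out ranged from -1.58 to 0.049 in MCM5, from -1.12 to 0.043 in MCM8, from -0.98 to 0.13 in MCM7, from -0.98 to 0.27 in GINS2, from -0.86 to 0.37 in MCM6, from -1.09 to 0.55 in MCM4, from -0.95 to 0.54 in PCNA, from -0.78 to 0.49 in POLE2, from -0.67 to 0.54 in RFC4 and from -0.89 to 0.77 in RRM2, with PCNA at 0.09 without No Doxy replicate 1. These genes entered by rule because their Doxy arrays were at least 1 apart, so that gap was fixed by the selection. Genes outside the rule changed sign too, such as PRIM2, at -0.12 on average and 0.35 in Doxy replicate 2 alone. The cause was not tested.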
